A study of Homo sapiens with 8 samples.

Results

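The genes described here are the histone genes of A549 cells, an established human lung adenocarcinoma line. They are the 75 of 17056 genes in the deposited table whose symbol begins with H1-, H2A, H2B, H3-, H3C, H4- or H4C. Of these, 61 are replication-dependent genes and 14 are replacement variants or other histone genes outside that class. Messenger RNA levels were measured by RNA sequencing in 8 libraries, 2 in each of 4 groups: A549 cells with a vector control, A549 cells overexpressing the long non-coding RNA AFAP1-AS1 (labelled OE), A549 cells with a knockdown negative control (labelled ASONC) and A549 cells with AFAP1-AS1 knocked down (labelled ASO). The labels give no agent, dose or time for the knockdown and no backbone for the vector, and all 4 groups share the A549 background. Whether the libraries of a group are separate cultures is not stated, so every p-value below reflects library-to-library spread that could be technical.

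Histones are the proteins around which DNA is wound in nucleosomes. The core particle holds H2A, H2B, H3 and H4, and the linker histone H1 binds where DNA enters and leaves it. Replication-dependent histone genes lie in clusters, lack introns, are transcribed in S phase when new chromatin is built, and give messenger RNAs that end in a conserved stem-loop in place of a poly(A) tail. Replacement variants such as H3.3 and H2A.Z are made throughout the cell cycle from ordinary, usually polyadenylated messages and are placed into chromatin by dedicated chaperones.

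The stem-loop is the feature that sets the messages of the replication-dependent genes apart, since the protein SLBP binds it to direct their 3′ end formation, and for this reason loops of members described later are printed here. A loop was searched as the 16 letters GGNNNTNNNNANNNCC, on the sense strand, with all 6 bases of each stem arm pairing around a loop of 4 bases. G with T counted as a pair, and the loop had to hold mostly T before its last base. The sequences come from GENCODE release 29 transcripts (GRCh38), written as DNA, 5′ to 3′, with the 16 matching bases in capitals and up to 5 bases on each side in lower case.
H2AC6: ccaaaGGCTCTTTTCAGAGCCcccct
H2BC6: ccaaaGGCTCTTTTCAGAGCCa
H2BC15: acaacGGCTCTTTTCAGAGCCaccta
H2BC21: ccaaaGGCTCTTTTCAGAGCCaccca
H2BC5: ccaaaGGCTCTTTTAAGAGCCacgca
H3C10: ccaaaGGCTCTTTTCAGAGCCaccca
H3C6: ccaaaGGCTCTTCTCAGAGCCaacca
H4C8: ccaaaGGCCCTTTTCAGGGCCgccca
H4-16: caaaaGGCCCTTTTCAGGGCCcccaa
H2AX: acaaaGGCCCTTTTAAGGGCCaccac
A loop was found in coding transcripts of 29 of the 70 members that had a coding transcript in this annotation, in 28 of 57 replication-dependent genes and in 1 of 13 others. The exception was H2AX, the variant phosphorylated at DNA breaks, whose message can end either way. Among the coding transcripts of all other genes, 399 of 83030 (0.481%) held a match. The 29 loops comprised 7 different letter strings, and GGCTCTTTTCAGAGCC was the most frequent, in 14 genes. Of the 29 replication-dependent genes without a match, 26 have coding transcripts that all finish in the letters of a stop codon, so their annotated sequence need not reach the loop, and a missing match says only that the letters are not in that sequence. H2AC6, H2BC15, H2BC18, H2BC4 and H2BC5 had coding transcripts both with and without the loop.

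Many replication-dependent genes sit head to head, and 11 divergent pairs were found among the members. In 10 of them the starts lie between 194 and 248 bases apart, and in the remaining pair, H3C7 and H2BC9, 979 bases apart. The stretch between the starts is printed for 3 pairs in which both genes were tested and at least 1 was called after knockdown, from the RefSeq table of build GRCh38.p14. Capitals mark CCAAT, the letters bound by NF-Y, TATAAA, the TATA box, and ATTTGCAT, the octamer bound by POU factors such as OCT1, with their reverse complements in capitals as well.
H2AC17-H2BC17 (chr6:27893186-27893424, plus strand): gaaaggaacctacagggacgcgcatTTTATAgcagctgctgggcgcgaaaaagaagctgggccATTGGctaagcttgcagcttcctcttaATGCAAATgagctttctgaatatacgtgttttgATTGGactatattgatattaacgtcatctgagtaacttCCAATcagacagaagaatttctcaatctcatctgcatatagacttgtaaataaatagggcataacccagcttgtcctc
H2BC21-H2AC20 (chr1:149886683-149886917, plus strand): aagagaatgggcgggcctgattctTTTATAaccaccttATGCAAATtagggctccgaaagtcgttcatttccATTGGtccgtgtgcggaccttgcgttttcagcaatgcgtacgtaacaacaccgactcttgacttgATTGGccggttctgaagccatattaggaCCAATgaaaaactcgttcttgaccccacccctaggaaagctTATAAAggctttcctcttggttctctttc
H2BC4-H2AC6 (chr6:26123927-26124171, plus strand): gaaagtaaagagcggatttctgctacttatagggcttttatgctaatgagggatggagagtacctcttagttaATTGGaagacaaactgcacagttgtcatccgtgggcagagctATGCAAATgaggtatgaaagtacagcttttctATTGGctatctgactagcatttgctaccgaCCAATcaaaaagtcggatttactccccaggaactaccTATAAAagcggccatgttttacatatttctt
For the 4 members without such a partner that had the largest differences between knockdown and its control, the 200 bases before the start are printed in the direction of transcription.
H2BC6 (chr6:26183561-26183760, plus strand): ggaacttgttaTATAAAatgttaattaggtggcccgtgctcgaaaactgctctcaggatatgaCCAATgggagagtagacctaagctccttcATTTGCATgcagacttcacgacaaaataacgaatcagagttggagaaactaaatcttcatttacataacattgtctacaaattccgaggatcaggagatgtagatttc
H3C10 (chr6:27809851-27810050, plus strand): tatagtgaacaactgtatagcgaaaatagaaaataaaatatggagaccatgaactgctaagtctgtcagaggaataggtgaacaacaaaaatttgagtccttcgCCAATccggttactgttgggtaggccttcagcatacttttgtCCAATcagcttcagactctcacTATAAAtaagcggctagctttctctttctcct
H4C8 (chr6:26285535-26285734, minus strand): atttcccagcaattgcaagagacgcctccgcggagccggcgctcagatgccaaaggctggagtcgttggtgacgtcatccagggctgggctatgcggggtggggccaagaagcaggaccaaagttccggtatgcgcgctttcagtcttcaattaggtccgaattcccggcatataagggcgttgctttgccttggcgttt
H2AJ (chr12:14774205-14774404, plus strand): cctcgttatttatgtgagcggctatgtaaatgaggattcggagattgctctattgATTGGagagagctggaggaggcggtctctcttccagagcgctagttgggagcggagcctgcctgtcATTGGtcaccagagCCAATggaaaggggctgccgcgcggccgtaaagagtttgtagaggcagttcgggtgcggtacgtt
Promoter windows from 250 bases before to 50 bases after the start were available for 67 of the 75 members. CCAAT was in 83.9% of 56 replication-dependent windows, in 90.9% of 11 others and in 35.7% of all 27305 windows. It was in every replication-dependent window of the H1, H2A, H2B and H3 families but in only 2 of 11 H4 windows. The octamer was in 13 of 17 H2B and 9 of 14 H2A windows of that class, in 1 of 10 H3 windows, in 0 of 11 H4 and 0 of 4 H1 windows, and in 1.8% of all windows. TATAAA was in 66.1% of the replication-dependent windows, 45.5% of the others and 12% of all. In the stretches printed, 0 copies of the 3 strings were found before H4C8. A match describes the letters and is not a test of binding.

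Depth was similar in all libraries, between 33697949 and 37548556 reads recovered from the deposited values. The targeted RNA AFAP1-AS1 is not analysed here, so the labels were not checked by its level. Keratin genes KRT7, KRT8 and KRT18 stood between 956 and 1339 FPKM, ALDH1A1 between 1745 and 2026 FPKM, and CDKN2A, which is deleted in A549, at or below 0.0384 FPKM. Not all epithelial markers were high: KRT19 stood between 1.51 and 4.92 FPKM, EPCAM between 0.386 and 0.862 FPKM and CDH1 between 0.841 and 4.42 FPKM. The lung markers SFTPC, SFTPB and NKX2-1 were at or below 0.331 FPKM, and PTPRC, a leukocyte marker, at or below 0.00429 FPKM. Of 14 markers of other cell types, 2 reached the filter on low values, CD68 and COL1A1, whose values stand beside the comparison of the 2 controls. The knockdown control libraries stood apart in having 1435 and 1341 genes at 0, against 2205 to 2327 in the other 6. The labels do not say how messages were selected from total RNA, which bears on those without a poly(A) tail.

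Histone genes took between 0.183% and 0.252% of the reads of a library, and most of that came from the replacement variants. Replacement and other variants held 0.168% ± 0.002 of reads in the vector control, 0.175% ± 0.003 with overexpression, 0.222% ± 0.006 with the knockdown control and 0.216% ± 0.001 after knockdown (SD, n = 2). The 61 replication-dependent genes together held 0.0166% ± 0.0001, 0.0168% ± 0.0002, 0.0254% ± 0.0009 and 0.0209% ± 0.0009 of reads in the same order of groups. Summed FPKM of the replication-dependent genes was 202.8 and 199.2 with the vector, 203.9 and 205.9 with overexpression, 312 and 329 with the knockdown control and 273 and 256 after knockdown. The overexpression sums lay just above the vector control sums, and both knockdown libraries lay between these 4 and the knockdown control. In bulk RNA, fewer cells in S phase and less histone RNA per cell cannot be told apart. A few genes with long models carried the class: 8 replication-dependent genes whose model exceeds 850 bases, long enough to include sequence beyond the usual short message, held between 54.8% and 66.2% of its reads, and H2BC12 alone between 29.7% and 42.9%.

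**Figure D1:**
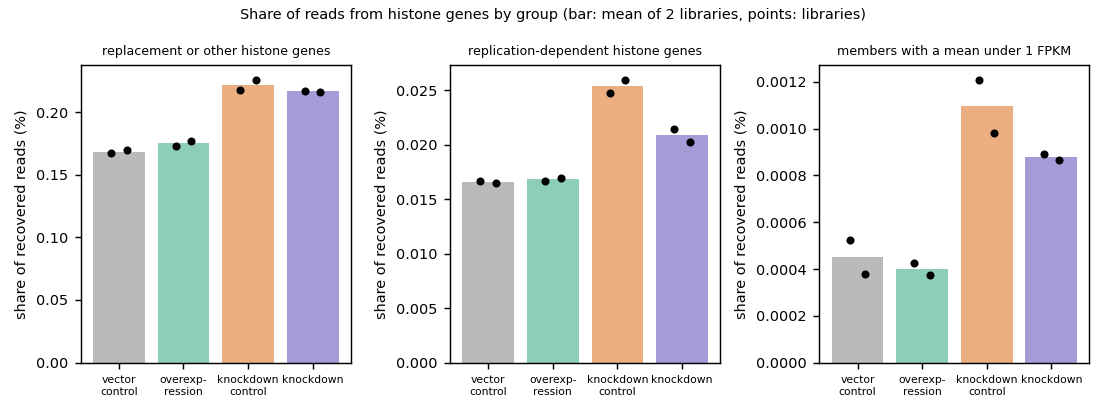
Share of recovered reads from histone genes (percent, vertical axis, each panel with its own scale starting at 0) in the 4 groups, with bars at the mean of 2 libraries and points for the libraries. In the left and middle panels both knockdown control and both knockdown libraries lie above all 4 vector control and overexpression libraries.

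Genes were tested when their mean over the 8 libraries was at least 1 FPKM, which 33 of the 75 members reached, 24 of them replication-dependent and 9 not. A member can pass this filter through the group in which it is high, so the tested members are not a sample of all members. For H2BC6, H2BC13 and H4C9 the mean over the other 3 groups was under the filter (0.631, 0.987 and 0.887 FPKM) when the knockdown control was left out, for H2BC17 when the knockdown was left out (0.915 FPKM) and for H2BC13 also when the vector control was left out (0.969 FPKM). Among the 42 under the filter, 37 were replication-dependent, 10 had reads in every library and 4 never exceeded 3 reads. Their summed reads were 176 and 140 in the vector control, 153 and 141 with overexpression, 431 and 361 with the knockdown control and 321 and 308 after knockdown. The 5 with the most reads were H4C15, H1-4, H1-3, H3C3 and H2BU1, none above 66 reads in a library. H4C15 is a near-identical copy of H4C14 and had 39 and 3 reads with the vector, 4 and 2 with overexpression, 57 and 66 with the knockdown control and 4 and 41 after knockdown. The model of H4C15 holds 2662 bases against 396 for H4C14, which had between 0 and 4 reads in a library. How shared reads were assigned is not stated, and its part in these values was not tested. H1-4, a linker histone gene, had 11 and 13 reads with the vector, 14 and 18 with overexpression, 39 and 39 with the knockdown control and 58 and 22 after knockdown.

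The replacement variants were the most abundant histone messages. H2AZ1 was at 301 and 316 FPKM with the vector, 324 and 342 with overexpression, 536 and 578 with the knockdown control and 519 and 513 after knockdown. H2AZ1 encodes H2A.Z, which marks promoters, and it was the highest member in every library. H3-3B was at 221 and 227 FPKM with the vector, 230.3 and 234 with overexpression, 268 and 273 with the knockdown control and 263 and 264 after knockdown. H3-3A was at 86.6 and 92.4 FPKM with the vector, 89.99 and 89.7 with overexpression, 115 and 119 with the knockdown control and 130.4 and 127 after knockdown. H3-3A and H3-3B encode the same H3.3 protein, and H3-3B was the higher of the pair in all 8 libraries. H2AJ was at 113 and 120 FPKM with the vector, 123 and 133 with overexpression, 289 and 313 with the knockdown control and 191 and 190.3 after knockdown. H2AJ, a variant of H2A at chr12:14774405-14778002 (GRCh38), separated the groups without overlap: its knockdown control values were the highest, the knockdown values next, then overexpression, and the vector control values the lowest.

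H1-10 was at 67.99 and 64.3 FPKM with the vector, 65.5 and 72.4 with overexpression, 86.2 and 82.3 with the knockdown control and 88.6 and 84.4 after knockdown. H2AX was at 56.1 and 52.9 FPKM with the vector, 56.3 and 55.05 with overexpression, 71.7 and 78.4 with the knockdown control and 81.7 and 81.3 after knockdown. H2AZ2, which encodes a second form of H2A.Z, was at 31.5 and 31.1 FPKM with the vector, 32.2 and 31.2 with overexpression, 29.3 and 30.4 with the knockdown control and 33.1 and 34.9 after knockdown. The 2 knockdown libraries of H2AZ2 were above its other 6, and H2AX had its highest values in the same libraries. H3-5, a retroposed copy of H3.3 whose reads may come from H3-3B, ranged from 2.51 to 3.71 FPKM.

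Among the linker and H2A genes of the replication-dependent class, H1-2 and H2AC6 were the highest. H1-2 was at 29.9 and 35.7 FPKM with the vector, 31.3 and 32.7 with overexpression, 54.6 and 67.8 with the knockdown control and 48.5 and 44.99 after knockdown. H2AC6 was at 24.4 and 25.8 FPKM with the vector, 26.2 and 25.9 with overexpression, 39 and 43.1 with the knockdown control and 33.5 and 28.95 after knockdown. Both were higher in each knockdown control and knockdown library than in any vector control or overexpression library. H2AW was at 7.09 and 5.53 FPKM with the vector, 6.95 and 6.57 with overexpression, 12.8 and 14.6 with the knockdown control and 11.7 and 10.2 after knockdown. H2AC11 was at 3.25 and 3.08 FPKM with the vector, 3.37 and 2.81 with overexpression, 5.35 and 7.05 with the knockdown control and 5.06 and 4.79 after knockdown. H2AC13 and H2AC17, also genes of the large cluster on chromosome 6, were near the filter in the vector control. H2AC13 was at 1.02 and 1.86 FPKM with the vector, 1.17 and 1.72 with overexpression, 3.8 and 4.39 with the knockdown control and 4.2 and 3.01 after knockdown. H2AC17 was at 1.95 and 1 FPKM with the vector, 1.19 and 0.928 with overexpression, 3.63 and 5.02 with the knockdown control and 1.59 and 1.33 after knockdown. H2AC17 in the knockdown libraries was back within the range of the vector control and overexpression libraries, while H2AC13 was not. H2AC20 ranged from 0.560 to 2.96 FPKM.

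The H2B genes had the widest range of levels in the class. H2BC12 was at 80.96 and 78.2 FPKM with the vector, 80.2 and 80.8 with overexpression, 84.97 and 86.9 with the knockdown control and 87.6 and 87.7 after knockdown. H2BC12 was the highest replication-dependent gene in every library. H2BC5 was at 11.9 and 10.7 FPKM with the vector, 10.6 and 10.9 with overexpression, 19.1 and 18.8 with the knockdown control and 16.9 and 15.4 after knockdown. H2BC11 was at 6.98 and 7.63 FPKM with the vector, 6.52 and 7.2 with overexpression, 11.6 and 13.97 with the knockdown control and 12.8 and 9.07 after knockdown. In H2BC5 and H2BC11 all knockdown control and knockdown values exceeded all vector control and overexpression values. H2BC21 was at 4.52 and 4.25 FPKM with the vector, 4.08 and 5.05 with overexpression, 10.3 and 10.4 with the knockdown control and 5.65 and 5.28 after knockdown. H2BC4 was at 2.82 and 3.37 FPKM with the vector, 3.3 and 2.89 with overexpression, 2.74 and 2.93 with the knockdown control and 2.32 and 2.15 after knockdown. H2BC21 lies in the chromosome 1 cluster at chr1:149884459-149886682, and both of its knockdown control values were above the other 6, whereas both knockdown values of H2BC4 were below its other 6. H2BC15 was at 1.86 and 1.15 FPKM with the vector, 2.45 and 3.53 with overexpression, 5.18 and 3.61 with the knockdown control and 2.71 and 1.71 after knockdown. H2BC18 was at 0.557 and 0.765 FPKM with the vector, 0.806 and 1.12 with overexpression, 4.62 and 2.5 with the knockdown control and 2.45 and 1.85 after knockdown. H2BC18 had 20 and 30 reads with the vector, 31 and 45 with overexpression, 175 and 98 with the knockdown control and 94 and 70 after knockdown, so the high values rest on modest counts. In both H2BC15 and H2BC18 the knockdown control values were above the vector control and knockdown values. H2BC17 was at 0.571 and 0.349 FPKM with the vector, 1.19 and 1.31 with overexpression, 1.14 and 0.93 with the knockdown control and 1.96 and 1.32 after knockdown. H2BC6 was at 0.441 and 0.0577 FPKM with the vector, 1.24 and 0.453 with overexpression, 4.24 and 2.77 with the knockdown control and 1.06 and 0.538 after knockdown. The knockdown control values of H2BC6 stood above all 6 other libraries, and the knockdown values of H2BC17 just above those of overexpression. H2BC6, at chr6:26183761-26184230, had 7 and 1 reads with the vector, 21 and 8 with overexpression, 71 and 48 with the knockdown control and 18 and 9 after knockdown. H2BC13 ranged from 0.542 to 1.91 FPKM.

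H3 and H4 genes of the class were low. H3C10 was at 2.01 and 2.4 FPKM with the vector, 2.9 and 1.86 with overexpression, 8.84 and 6.82 with the knockdown control and 3.25 and 4.28 after knockdown. H3C2 was at 0.812 and 1.12 FPKM with the vector, 0.812 and 1.56 with overexpression, 1.65 and 1.97 with the knockdown control and 1.63 and 2.25 after knockdown. Both knockdown control values of H3C10 were above all 6 other libraries, which was not so for H3C2. H3C6 ranged from 1.29 to 2.07 FPKM. H4C8 was at 4.13 and 4.18 FPKM with the vector, 5.75 and 5.53 with overexpression, 8.17 and 9.5 with the knockdown control and 4.2 and 3.09 after knockdown. H4C8, at chr6:26285126-26285534, had 57 and 63 reads with the vector, 85 and 85 with overexpression, 119 and 143 with the knockdown control and 62 and 45 after knockdown. H4-16 was at 0.935 and 0 FPKM with the vector, 1.48 and 0.646 with overexpression, 2.66 and 1.45 with the knockdown control and 2.76 and 3.61 after knockdown. H4-16 lies next to H2AJ on chromosome 12, away from the clusters. All H4 genes encode the same protein from similar coding sequences, and the treatment of reads that fit several copies is not stated, so single H4 values are uncertain. H4C5 ranged from 0.839 to 2.79 FPKM and H4C9 from 0.342 to 2.26 FPKM.

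**Figure D2:**
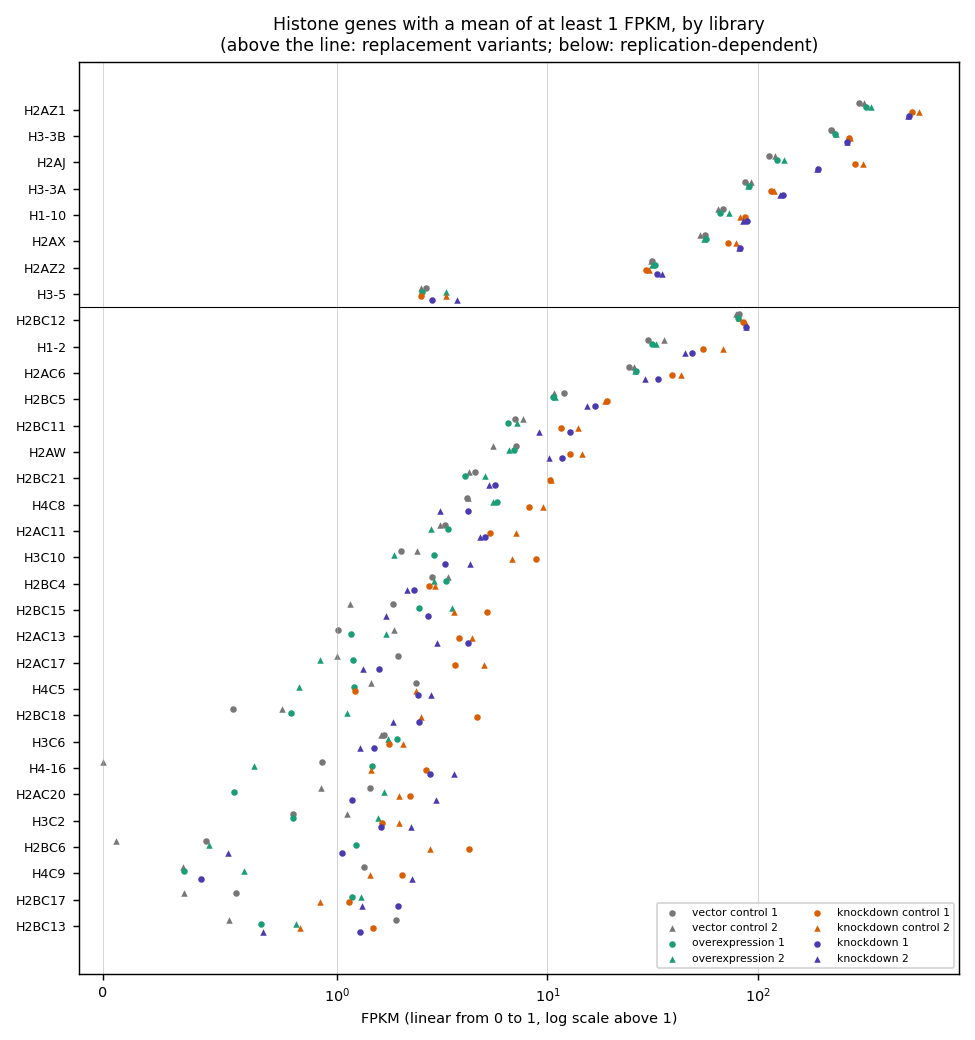
FPKM (horizontal axis, linear from 0 to 1 and log scale above 1) of 32 of the 33 tested histone genes, ordered by mean level within replacement variants (above the line) and replication-dependent genes (below it), with circles and triangles for the 2 libraries of each of 4 groups. Knockdown control libraries lie farthest right in many genes, and the vector control and overexpression libraries lie close together.

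With AFAP1-AS1 overexpression no tested histone gene passed the threshold. The test was limma on log2(FPKM + 1) over 10648 genes, with a Benjamini-Hochberg adjusted p below 0.05 as the threshold for a call. Fold changes are differences of log2(FPKM + 1), a scale on which changes of low genes look smaller than they are. With overexpression, 0 of 33 histone genes were called, against 0.0657% of all tested genes (7 genes, all higher). At an unadjusted limma p below 0.05 there were 7 histone genes, 6 of them higher, beside 6.93% of all tested genes (4.23% higher, 2.7% lower), and limma with voom on the recovered reads also called 0. The median log2 fold change was 0.03 for replication-dependent genes and 0.06 for the others, beside 0.00 for all tested genes. The smallest p belonged to H2BC17, with 9 and 6 reads in the vector control and 20 and 23 with overexpression (0.63 ± 0.13 SE, limma adjusted p = 0.141). H2BC15 followed (0.67 ± 0.19, limma adjusted p = 0.39), then H4C8 (0.36 ± 0.11, limma adjusted p = 0.421). In these 3 genes both overexpression libraries were above both vector control libraries. The groups did not overlap, in either direction, in 11 of the 33 tested members. The share of all tested genes without overlap was not computed, so this count is a description without a background. Genes picked by a small p tend to have groups that do not overlap, so such a separation adds nothing to the p-values. H4C5 was the member with the lowest fold change (-0.51 ± 0.19, limma adjusted p = 0.589). For H3-3B, the most heavily read member, the difference was 0.06 ± 0.03.

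Several replication-dependent genes were lower in the knockdown libraries than in the knockdown control. Between knockdown and its control, 10 histone genes fell and 2 rose of 33 (36.4%), against 22.2% of all tested genes, 10.9% lower and 11.3% higher. Of the 24 replication-dependent genes, 9 fell and 0 rose, with a median log2 fold change of -0.28 beside 0.02 over all tested genes. Of the 9 others, 1 fell and 2 rose, with a median of 0.08. H2BC6 is among the replication-dependent genes counted as lower, and it passed the filter only through the knockdown control libraries. Under TPM scaling the split was 9 lower and 4 higher, beside 8.32% of all tested genes lower and 16.7% higher. After a correction for length and GC content, described later, 2 replication-dependent genes were called higher. H2BC17, which was among them, passed the filter only through the knockdown libraries.

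The H2A genes that fell were H2AJ, H2AC17 and H2AC6. H2AJ fell to 0.634 of its control level (-0.65 ± 0.05, limma adjusted p = 3.92e-06), the smallest adjusted p among the members. H2AC17 fell by more on the log scale (-1.10 ± 0.17, limma adjusted p = 0.000886). The change of H2AC6 was smaller (-0.39 ± 0.07, limma adjusted p = 0.00244). In all 3 both knockdown values were below both control values, which adds nothing to the p-values. The groups did not overlap, in either direction, in 25 of the 33 tested members. The share of all tested genes without overlap was not computed, so this count is a description without a background.

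The H2B genes that fell were H2BC6, H2BC21, H2BC15 and H2BC5. H2BC6 differed by -1.32 ± 0.23, at counts of 9 to 71 reads in these 4 libraries, but it was tested only because of its knockdown control values, so its call is a description. H2BC21 fell to 0.527 of the control (-0.81 ± 0.09, limma adjusted p = 6.03e-05). H2BC15 (-0.75 ± 0.19, limma adjusted p = 0.016) and H2BC5 (-0.22 ± 0.07, limma adjusted p = 0.03) fell too, but not in every alternative. H2BC12, the H2B gene with the most reads, differed by 0.03 ± 0.04 and was not called (limma adjusted p = 0.627).

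H3C10, H4C8 and H1-2 were the members of the remaining families that fell. H3C10 fell to 0.481 of the control (-0.89 ± 0.15, limma adjusted p = 0.00204) and H4C8 to 0.413 (-1.09 ± 0.11, limma adjusted p = 3.21e-05). H1-2 fell to 0.763 (-0.38 ± 0.10, limma adjusted p = 0.0155). The genes that rose were H2AZ2 (0.18 ± 0.05, limma adjusted p = 0.0188) and H3-3A (0.14 ± 0.04, limma adjusted p = 0.0342), both replacement variants, to 1.14 and 1.1 times their control levels. H2AJ, H2AC6, H2AC17, H2BC21, H3C10 and H4C8 kept their call in every alternative in which they were fitted. So did H2BC6, but its call remains a description, since it passed the filter only through the knockdown control libraries. The others were each lost in some: H1-2 without knockdown control replicate 2 (-0.22) or knockdown replicate 2 (-0.32), H2BC15 without knockdown control replicate 1 (-0.54) or knockdown replicate 2 (-0.52), H2AZ2 without knockdown control replicate 1 (0.16) or knockdown replicate 2 (0.14), H2BC5 without either control replicate (-0.21 and -0.23) or knockdown replicate 2 (-0.16), and H3-3A when any 1 of the 4 libraries compared was left out (0.12 to 0.16).

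Between the knockdown control and the vector control, 24 of 33 histone genes (72.7%) were called, a share near the 68.6% of all tested genes. All 24 were higher and 0 were lower, against 36.8% of all tested genes higher and 31.8% lower. This split was not kept under every setting, since 4 members were called lower under TPM scaling and 6 after the correction for length and GC content. This contrast compares 2 kinds of control and carries no AFAP1-AS1 manipulation by its labels. Markers moved with these groups as well. CD68, a macrophage and lysosome marker, was at 49.5 ± 0.97 FPKM with the vector, 49.7 ± 0.84 with overexpression, 89.6 ± 0.63 with the knockdown control and 64.7 ± 0.96 after knockdown (SD, n = 2). COL1A1, a collagen of fibroblasts, was at 0.554 ± 0.054, 0.510 ± 0.067, 2.45 ± 0.064 and 1.96 ± 0.13 FPKM and CDH1, an epithelial cadherin, at 3.82 ± 0.38, 4.02 ± 0.57, 1.14 ± 0.42 and 1.59 ± 0.26 FPKM in the same order. The 12 markers of other cell types in the table summed to 51.1 and 52.2 FPKM with the vector, 50.7 and 52.2 with overexpression, 92.1 and 93.1 with the knockdown control and 67.5 and 66.5 after knockdown, nearly all of it CD68. PTPRC was at or near 0 throughout, and the part of these markers in the result was not tested. Among replication-dependent genes 18 of 24 rose, with a median log2 fold change of 0.76, and among the others 6 of 9, with a median of 0.35, beside 0.04 for all tested genes. H2BC6, which passed the filter only through the knockdown control libraries, differed by 1.85 ± 0.23, from 7 and 1 reads. The next fold changes in size were those of H3C10 (1.45 ± 0.15, limma adjusted p = 5.31e-06), H2BC18 (1.42 ± 0.18, limma adjusted p = 2.77e-05) and H2AJ (1.36 ± 0.05, limma adjusted p = 2.06e-09). H2AJ went to 2.58 times its vector control level and H2AZ1 to 1.8 times (0.85 ± 0.04, limma adjusted p = 1.52e-08).

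Between log2 fold changes of 0.9 and 1.2 in the same contrast were H2AC17 (1.12), H4-16 (1.11), H2BC15 (1.10), H2AC13 (1.08), H2BC21 (1.08), H2AW (1.02) and H4C8 (0.93). Smaller rises were called for H1-2 (0.88), H2AC11 (0.78), H2BC11 (0.73), H2BC5 (0.70), H2AC6 (0.69), H3C2 (0.52), H2BC17 (0.48), H2AX (0.45), H3-3A (0.38), H1-10 (0.34), H3-3B (0.28) and H2BC12 (0.11). H2AZ2 (-0.07) and H2BC4 (-0.09) were among those below 0 and not called. By place in the genome, 14 of 19 tested genes of the chromosome 6 cluster rose, 2 of 3 in the chromosome 1 q21 cluster and the 1 tested gene of the chromosome 1 q42 pair. Under TPM scaling, which lowers the median of all genes by 0.20, the count was 22 higher and 4 lower, beside 22.2% of all tested genes higher and 47.8% lower. The calls that a single library decided were H2BC12 (0.08 without vector control replicate 2, 0.09 without knockdown control replicate 2), H2BC17 (0.37 without vector control replicate 2), H3C2 (0.41 without vector control replicate 1, 0.44 without knockdown control replicate 2) and H4-16 (0.63 without vector control replicate 2, 0.82 without knockdown control replicate 1). In every alternative in which they were fitted, 13 of the 24 kept their call. These 13 include H2BC6, whose call is a description, since it passed the filter only through the knockdown control libraries.

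**Figure D3:**
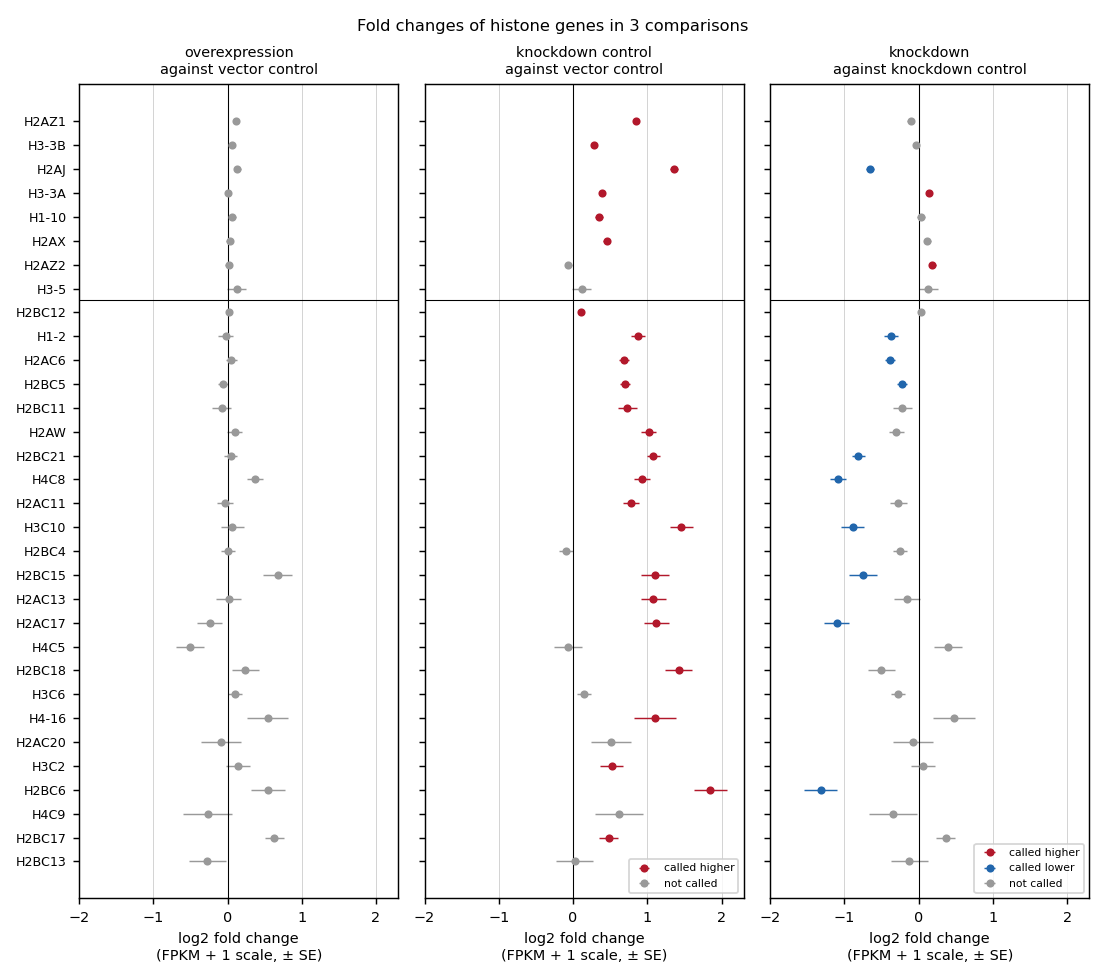
Log2 fold changes on the FPKM + 1 scale (horizontal axis, bars show the standard error) of 32 of the 33 tested histone genes in 3 comparisons, coloured by the call in limma at an adjusted p below 0.05. The left panel has 0 called genes, the middle panel 24 called higher, and the right panel 10 called lower and 2 higher.

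The knockdown comparison and the control comparison share the knockdown control libraries, so a chance departure of those libraries moves a gene in opposite directions in the 2 contrasts. Against the vector control, the knockdown libraries had 20 histone genes higher and 1 lower of 33, beside 62.9% of all tested genes called, 34.1% higher and 28.8% lower. The 20 include H2BC17, which passed the filter only through the knockdown libraries, so its call is a description. The medians were 0.46 for replication-dependent genes, 0.38 for the others and 0.03 for all tested genes. H4-16 rose most here (1.58 ± 0.28, limma adjusted p = 0.000423), with 13 and 0 reads in the vector control and 41 and 53 with knockdown. H2AJ (0.71 ± 0.05), H2AZ1 (0.74 ± 0.04), H2AX (0.57 ± 0.05) and H3-3A (0.52 ± 0.04) also rose (limma adjusted p between 9.2e-08 and 1.49e-06). H2BC4 was the member that fell (-0.34 ± 0.09, limma adjusted p = 0.00769). The values of H2AC17 (0.02 ± 0.17, limma adjusted p = 0.941), H4C8 (-0.16 ± 0.11, limma adjusted p = 0.207) and H2BC15 (0.35 ± 0.19, limma adjusted p = 0.123) did not pass. Under TPM scaling, which lowers the median of all genes by 0.16 here, the count was 17 higher and 4 lower, beside 20.1% of all tested genes higher and 42.9% lower. Calls lost without vector control replicate 2 were H2BC12 (0.11), H2BC21 (0.23) and H2BC4 (-0.24), and without vector control replicate 1 H3C10 (0.48) and H3C2 (0.47). Without knockdown replicate 1 the call of H2BC21 (0.22) was lost, and without knockdown replicate 2 those of H2BC4 (-0.30), H3C10 (0.41) and H3C2 (0.42).

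The effects of overexpression and knockdown were also set against each other in 1 contrast, overexpression minus vector control less knockdown minus knockdown control. This difference was above 0 and called in 9 of 33 histone genes and below 0 in 0, against 10.2% of all tested genes, 6.19% above and 4.02% below. The 9 were H2BC6 (1.87), H4C8 (1.45), H2BC15 (1.42), H3C10 (0.95), H2AC17 (0.86), H2BC21 (0.86), H2AJ (0.79), H2AC6 (0.44) and H2AZ1 (0.22). H2BC6 was tested only because of its knockdown control values, so its call here is a description. H4C8, H2BC21 and H2AJ kept this call in every alternative in which they were fitted, and the other 6 lost it in at least 1. H2AC17 (0.58 to 0.96), H3C10 (0.73 to 0.86), H2AC6 (0.34 to 0.40) and H2AZ1 (0.16 to 0.23) lost it when single libraries were left out: for H2AC17 every library but vector control replicate 1 and knockdown control replicate 1, for H3C10 replicate 1 of any group, for H2AC6 vector control replicate 1 and replicate 2 of the knockdown control and of the knockdown, and for H2AZ1 vector control replicate 1, overexpression replicate 2, knockdown control replicate 2 and either knockdown replicate. Under TPM scaling the split was 8 above and 2 below 0, beside 5.17% of all tested genes above and 7.17% below. Under median-of-ratios scaling it was 8 above and 1 below, beside 5.22% above and 5.63% below.

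Members of a head-to-head pair did not always have similar values, although they share the stretch between their starts. In the H2AC17 and H2BC17 pair, knockdown against its control gave -1.10 ± 0.17 for H2AC17 and 0.37 ± 0.13 for H2BC17, which was not called (limma adjusted p = 0.0616). In the H2BC21 and H2AC20 pair the values were -0.81 ± 0.09 and -0.08 ± 0.27 (limma adjusted p = 0.865 for H2AC20). In the H2BC4 and H2AC6 pair they were -0.25 ± 0.09 and -0.39 ± 0.07 (limma adjusted p = 0.0803 for H2BC4). H2BC11 and H2AC11 were closer, at -0.22 ± 0.13 and -0.27 ± 0.11, neither called. Whether the genes within a pair differed from each other was not tested.

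Most replication-dependent genes have short models, and over all tested genes fold changes moved with gene length and GC content. Across genes, which are not independent replicates, the Spearman correlation of the fold change with gene length was -0.52 for knockdown control against vector control, 0.28 for knockdown against its control and -0.08 for overexpression. With GC content it was 0.52, -0.45 and 0.13 in the same order. Of the 84 tested genes of at most 600 bases that are not histone genes, 79 were called higher and 3 lower in the knockdown control against the vector control (median 0.65), and 0 higher and 36 lower with knockdown against its control (median -0.13). Of the 17 tested replication-dependent genes of at most 600 bases, 76.5% were called higher in the first of these contrasts, beside 94% of those 84 genes. With knockdown, 35.3% of the 17 were called lower, beside 42.9% of the 84, and the medians were -0.27 and -0.13. The 17 include H2BC6, which was called in both contrasts but passed the filter only through the knockdown control libraries. Its part in these shares is a description. Of the 7 tested replication-dependent genes over 600 bases, 5 were called higher in the first contrast and 3 lower in the second. Over all tested genes the shares were 36.8% higher and 10.9% lower. Other genes of matched length were not set beside these 7, so their counts are not separated from length.

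**Figure D4:**
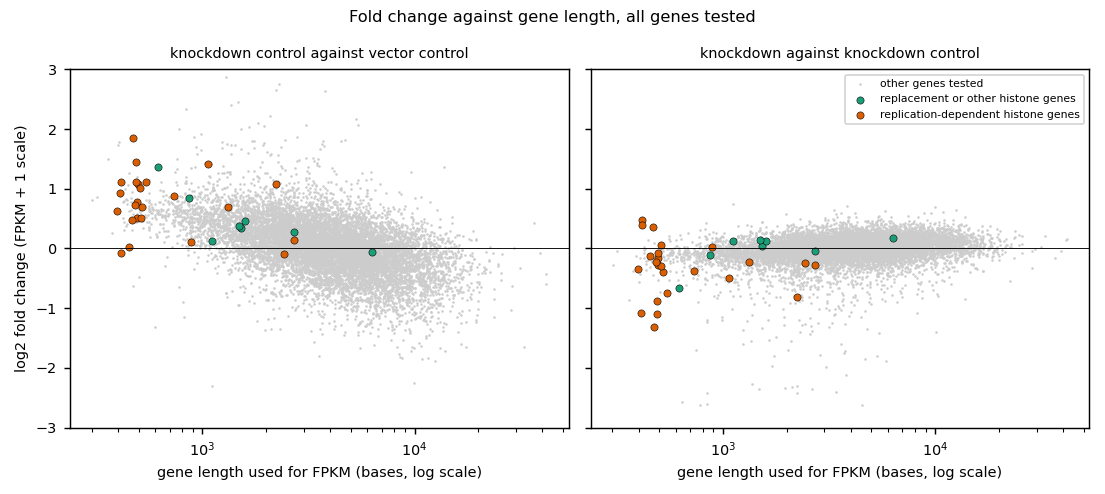
Log2 fold change (vertical axis, FPKM + 1 scale, drawn from -3 to 3, which leaves out 4 genes on the left and 3 on the right, none a histone gene) against the gene length used for FPKM (bases, log scale) for the tested genes, with 32 of the 33 tested histone genes coloured by type. In the left panel short genes lie above 0, histone genes among them, and in the right panel most of the lowest histone genes are short.

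The log2 values of each library were corrected for length and GC content with splines, and the test was fitted again. Fewer histone genes were then called higher in the knockdown control. Of 32 histone genes with a GC value, 15 were called higher and 6 lower against the vector control, beside 59.5% of all genes in that fit (32% higher, 27.5% lower), and the replication-dependent median was 0.26. Among those called lower were H2BC13 (-0.77), H4C5 (-0.67), H2BC12 (-0.54), H2BC17 (-0.33) and H1-10 (-0.24). H2AX (-0.10) was also below 0 but was not called. H2BC6 (1.25), H2BC18 (1.06) and H2BC21 (0.93) were among those above 0. GC content was taken from the longest GENCODE transcript of a gene. For H2BC12 that transcript has 381 bases and ends at the stop codon, against 887 bases in the model behind its FPKM. What this mismatch does to the corrected values was not tested. For knockdown against its control the corrected count was 9 lower and 5 higher of 32, beside 16.7% of all genes (8.51% higher, 8.15% lower), and the replication-dependent median was -0.17. H2BC6 (-1.16), H4C8 (-0.95), H2AC17 (-0.85), H2BC21 (-0.79), H3C10 (-0.71), H2BC15 (-0.69), H2AJ (-0.58) and H2AC6 (-0.30) were called lower after the correction, as was H3C6 (-0.32), which was not called without it. H1-2 (-0.19), H2BC5 (-0.16), H2AZ2 (0.09) and H3-3A (0.10) lost their call. Among those called higher were the replication-dependent genes H2BC12 (0.21) and H2BC17 (0.61) and the variants H2AX (0.28) and H1-10 (0.22), none of them called without the correction. H2BC6 passed the filter only through the knockdown control libraries and H2BC17 only through the knockdown libraries. H2BC13 was under the filter without the vector control libraries and also without the knockdown control libraries. The calls of H2BC6, H2BC17 and H2BC13 in the corrected fit are therefore descriptions. Corrected counts were 9 higher and 6 lower for knockdown against vector control (55.2% of all genes called, 29.8% higher and 25.4% lower), 0 for overexpression (0.0752%), and 5 above and 3 below 0 for the difference of effects (6.92% of all genes, 4.38% above and 2.54% below).

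Genes that act on histone messages and histone proteins were read beside the histone genes. In a list of 28 genes for transcription and 3′ end processing of histone messages, 3 rose and 2 fell with knockdown against its control (median 0.00), which is 17.9% of the list beside 22.2% of all tested genes. NPAT, which encodes the coactivator of histone gene transcription, was at 2.37 and 2.13 FPKM with the vector, 2.22 and 2.15 with overexpression, 1.18 and 0.964 with the knockdown control and 1.61 and 1.72 after knockdown. Its knockdown values were above its knockdown control values (0.37 ± 0.09, limma adjusted p = 0.0154). CASP8AP2 (0.28 ± 0.08, limma adjusted p = 0.0269), a partner of NPAT, and CPSF3 (0.20 ± 0.05, limma adjusted p = 0.0103), the endonuclease that cuts histone messages, also rose, and SNRPF, a protein of small nuclear ribonucleoproteins, fell (-0.14 ± 0.05, limma adjusted p = 0.0441). SLBP, which encodes the stem-loop binding protein, was at 38.2 and 39.4 FPKM with the vector, 37.6 and 38.96 with overexpression, 39.5 and 38.2 with the knockdown control and 43.2 and 39.7 after knockdown. SLBP was called in neither contrast with the knockdown control (0.09 ± 0.05 with knockdown, limma adjusted p = 0.224). In the knockdown control against the vector control, 9 of the 28 rose and 13 fell (32.1% and 46.4%, beside 36.8% and 31.8% of all tested genes), among them CASP8AP2 (-1.04 ± 0.08), CPSF2 (-0.85 ± 0.06) and NPAT (-0.65 ± 0.09), which were lower (limma adjusted p between 1.42e-07 and 5.67e-05). With overexpression 0 of the 28 were called.

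In a list of 35 histone chaperones and related factors, of which 34 were tested, 10 rose and 1 fell with knockdown against its control (median 0.08), or 29.4% and 2.94%, beside 11.3% and 10.9% of all tested genes. HJURP (0.30 ± 0.04), which places the centromeric H3 variant, ANP32E (0.38 ± 0.05), which removes H2A.Z, and HAT1 (0.30 ± 0.05), which acetylates new H4, were among those that rose (limma adjusted p between 0.000243 and 0.00168). In the knockdown control against the vector control 3 rose and 19 fell (median -0.18), or 8.82% and 55.9%, beside 36.8% and 31.8% of all tested genes. ATRX, which encodes a remodeller that places H3.3, was at 11.3 and 11.6 FPKM with the vector, 11.4 and 10.6 with overexpression, 2.43 and 2.52 with the knockdown control and 3.48 and 3.28 after knockdown. The vector control and overexpression values of ATRX were several times those of the other 4 libraries (-1.84 ± 0.07 in the knockdown control against the vector control, limma adjusted p = 2.09e-09). ATRX has a long message, so the relation of fold change to length stands beside this value too. With overexpression 0 of the 34 were called.

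In a list of 42 genes of S phase and DNA replication, 15 (35.7%) rose and 0 fell with knockdown against its control (median 0.15), beside 11.3% and 10.9% of all tested genes, while the replication-dependent histone genes had 9 lower and 0 higher. Those 9 include H2BC6, which passed the filter only through the knockdown control libraries. CCNA2, which encodes cyclin A2, was at 31.1 and 34.2 FPKM with the vector, 35.1 and 33.3 with overexpression, 28.7 and 27.6 with the knockdown control and 35.7 and 38.2 after knockdown. CCNA2 (0.38 ± 0.06, limma adjusted p = 0.000774), the ribonucleotide reductase genes RRM1 (0.27 ± 0.04) and RRM2 (0.27 ± 0.04), and RFC5 (0.25 ± 0.05), a subunit of the clamp loader, were among those that rose (limma adjusted p between 0.000473 and 0.00311). In the knockdown control against the vector control 12 rose and 17 fell (28.6% and 40.5%, beside 36.8% and 31.8% of all tested genes), with MCM2, a helicase subunit, at -0.63 ± 0.04 and CCNE1, cyclin E1, at 0.63 ± 0.05 (limma adjusted p between 6.53e-08 and 5.62e-07). After the length and GC correction 22 of the 42 (52.4%) rose and 0 fell with knockdown against its control, beside 8.51% and 8.15% of all genes in that fit. In the same corrected contrast 5 of 32 histone genes were higher and 9 lower, with replication-dependent genes called in both directions. With overexpression 0 of the 42 were called (median 0.06).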

How the data were processed

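The deposited table holds FPKM values (fragments scaled by gene length and library total) that the authors made, per the labels, with 1 column for each of 8 libraries. The tools listed in the submitters' processing notes are HISAT2, HTSeq, featureCounts and R 3.2.0, with the build hg38 (GRCh38) and no roles. Strand use, RNA selection and the handling of reads that fit several copies are not given there, so overlapping genes and near-identical copies are uncertain. FPKM divides by a library's total, so a shift in abundant genes moves all others.

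Columns were mapped to samples by name, and 0 columns were left unused. Whole reads were recovered from the steps of the FPKM values within 0.02 reads, which also returned the gene lengths behind them. The recovery and the test were checked on simulated data. The test was limma 3.58.1 in R 4.3.3 (two-sided, eBayes with trend) on log2(FPKM + 1), for 10648 genes whose mean reached 1 FPKM. All 4 groups entered the same fit, leaving 4 residual degrees of freedom, with Benjamini-Hochberg adjustment over all genes tested and a threshold of 0.05. Groups of 2 cannot pass an exact permutation test. Counting error adds to the uncertainty of genes with few reads.

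Older symbols were matched through the RefSeq table, which gave a position for all 75 histone genes. Members, the lists of related genes and the tests were chosen with earlier results of these data known. The tested histone genes are described except 1, which is counted but not reported here by name; members called in any comparison have their values given in every library, of those below the filter the 5 with the most reads are named, and of each list of related genes up to 4 with the smallest p, plus SLBP and NPAT. Of 19 RNAs without poly(A) tails, listed as a sign of RNA selection, 0 are analysed here. The 21 alternatives were TPM, quantile and median-of-ratios scaling, a filter at 5 FPKM or none, pseudocounts of 0.5 and 0.1, a fit of the compared libraries alone, a replicate block, a correction for length and GC content (splines with 5 degrees of freedom) with and without that block, voom on recovered reads, eBayes without trend, and leaving out each library.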

Additional observations from a re-analysis of the deposited data

Results flagged for a closer look

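In 9 histone genes the response to overexpression differed from the response to knockdown by a test of the difference itself (limma, adjusted p below 0.05 over all genes, 2 libraries a group). Each value is the log2 change with overexpression less that with knockdown, and all 9 are above 0. It was 1.87 for H2BC6, 1.45 for H4C8, 1.42 for H2BC15, 0.95 for H3C10, 0.86 for H2AC17, 0.86 for H2BC21, 0.79 for H2AJ, 0.44 for H2AC6 and 0.22 for H2AZ1. With overexpression alone 0 of these genes were called, and with knockdown 8 of the 9 were called lower, all but H2AZ1. H2BC6 passed the filter on low values only through the knockdown control libraries. The contrast uses all 4 groups, and the knockdown control libraries enter it directly.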

How the results depend on the processing

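The counts of called histone genes stayed within 1.5 times the reported ones under most settings. The counts here are of members alone, without the share of all tested genes called under the same setting. That share moves with the setting. For the knockdown control against the vector control it was 68.6% as reported and 59.5% after the length and GC correction. With a minimum mean of 5 FPKM, 14 were called for the knockdown control against the vector control (24 as reported), where fewer members are tested. For the difference of effects, 5 were called with no filter, 5 with a minimum mean of 5 FPKM and 5 with eBayes without trend, in place of 9. For the settings that tested the same genes the cause was not tested. Overexpression gave 0 calls under all 21 alternatives. Leaving out 1 library at a time gave 9 to 13 calls for knockdown against its control, 21 to 26 for the knockdown control and 19 to 25 for knockdown against the vector control, and 6 to 9 for the difference. Where this left a group with 1 library, that library was assumed to vary like the other groups. Replicate numbers did not pair the samples (correlations of same-numbered deviations between -0.061 and 0.062). With a replicate block, the paired fit called 14 for knockdown against its control, 24 for the knockdown control, 22 for knockdown against the vector control, 9 for the difference and 0 for overexpression. Several log2 fold changes took the other sign. In the knockdown control against the vector control, the correction for length and GC content, with or without the block, gave -0.242 for H1-10, -0.0952 for H2AX, 0.223 for H2AZ2, -0.544 for H2BC12, -0.769 for H2BC13 and -0.332 for H2BC17. TPM scaling gave -0.109 for H2BC12, and quantile normalization -0.0483 for H2BC12 and -0.0315 for H3-3B. In knockdown against the vector control the correction gave -0.0188 for H1-10, -0.573 for H2AC17, -0.000384 for H2AC6 and -0.329 for H2BC12. TPM scaling gave -0.0374 for H2BC12, and quantile normalization -0.00145 for H2BC12 and -0.0151 for H3-3B. H2AZ2, H2BC13 and H2AC17 were not called as reported in these contrasts. Depth limits the low genes most, since several had under 20 reads in a library.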
